A study of Mus musculus with 8 samples.

Results

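The hypoxia targets described here are 33 mouse genes outside glycolysis that are known targets of the hypoxia-inducible factors (HIFs). They act in blood vessel growth, removal of mitochondria, collagen hydroxylation, iron and haem handling, transcription and signalling. The members were matched by gene symbol, and all 33 were found among the 46983 genes of the deposited count table. The table holds 8 RNA sequencing libraries of bone marrow B cells from WT mice, sorted by MACS, a selection with magnetic beads. All 8 libraries are labelled with hypoxia as the stress, so every comparison is made under hypoxia and none sets hypoxia against normoxia. Estrogen was given in 4 libraries (Estrogen 1 to 4), and Vehicle in the other 4 (Vehicle 1 to 4). The labels give no dose, time, sex or age, and leave it unsaid whether the libraries are of separate mice or cultures.

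HIFs are paired transcription factors made of an oxygen-regulated alpha subunit, such as HIF-1α, and the stable partner ARNT. With oxygen present, prolyl hydroxylases mark the alpha subunit for destruction through the VHL ubiquitin ligase. When oxygen is low the alpha subunit accumulates, enters the nucleus and binds short DNA elements in its target genes. Bone marrow is a tissue of low oxygen, and HIF-1α activity in developing B cells is held to be regulated by stage. Because the RNA of HIF targets is the readout of this pathway, the comparison of Estrogen with Vehicle asks how far estrogen shifted that readout in hypoxic B cells.

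The element that HIFs bind contains the core ACGTG or GCGTG, so the promoters of the members were searched for these letters on both strands, where they read CACGT or CACGC on the opposite strand. The windows were the 250 bases before each start site annotated by RefSeq on GRCm38.p6, and 27 of the 33 members had an entry. At least 1 window of 26 of these 27 members held a core, for Vegfa only a window inside the gene. The members were listed as known HIF targets, so a high share of cores may follow from that choice alone. Among the 24 of them that were abundant enough to be tested, 23 (95.8%) held a core, against 60.0% of the 10502 tested genes with an entry. Counted by window, 28 of 34 windows of tested members (82.4%) held a core, against 54.2% of 13365 windows of tested genes. Windows of the same gene can overlap and share cores, as in Ak4, so they are not independent. Mif was the member with no core in its window. Hmox1, the member with the largest fitted difference, was among those with no entry. The promoters of 5 members with an entry are shown, chosen to include larger and smaller fitted differences. Cores are in capitals and each sequence is on the strand of its gene. The palindrome CACGTG counts on both strands. P4ha1 (chr10:59323046-59323295, plus strand, 3 cores) and Plod1 (chr4:147936777-147937026, minus strand, 1 core) encode collagen hydroxylases. Vegfa is shown by the window at its upstream start (chr17:46032378-46032627, minus strand), which held 0 cores, whereas a window inside the gene held 2. Bnip3 (chr7:138909507-138909756, minus strand, 5 cores) and the upstream window of Wsb1 (chr11:79254696-79254945, minus strand, 6 cores), whose other window held 0, belong to members with small fitted differences.
P4ha1: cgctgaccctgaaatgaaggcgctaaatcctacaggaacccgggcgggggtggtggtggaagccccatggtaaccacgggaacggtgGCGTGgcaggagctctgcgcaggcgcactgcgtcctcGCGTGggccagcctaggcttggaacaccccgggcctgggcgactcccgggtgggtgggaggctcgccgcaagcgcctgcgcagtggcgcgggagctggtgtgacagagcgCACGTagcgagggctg
Plod1: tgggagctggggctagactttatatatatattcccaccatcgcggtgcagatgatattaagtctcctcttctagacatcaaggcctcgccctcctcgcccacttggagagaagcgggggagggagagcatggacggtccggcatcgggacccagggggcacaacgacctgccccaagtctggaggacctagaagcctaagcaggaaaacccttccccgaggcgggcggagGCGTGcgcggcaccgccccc
Vegfa: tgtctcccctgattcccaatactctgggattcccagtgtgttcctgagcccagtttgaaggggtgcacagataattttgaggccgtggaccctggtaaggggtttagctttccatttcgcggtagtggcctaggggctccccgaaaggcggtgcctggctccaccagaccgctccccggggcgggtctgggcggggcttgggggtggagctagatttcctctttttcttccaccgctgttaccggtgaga
Bnip3: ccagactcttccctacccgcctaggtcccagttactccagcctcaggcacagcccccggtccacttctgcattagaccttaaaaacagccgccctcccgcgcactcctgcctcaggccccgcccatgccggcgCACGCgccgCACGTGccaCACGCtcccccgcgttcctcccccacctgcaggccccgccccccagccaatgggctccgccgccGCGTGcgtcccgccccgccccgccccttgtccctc
Wsb1: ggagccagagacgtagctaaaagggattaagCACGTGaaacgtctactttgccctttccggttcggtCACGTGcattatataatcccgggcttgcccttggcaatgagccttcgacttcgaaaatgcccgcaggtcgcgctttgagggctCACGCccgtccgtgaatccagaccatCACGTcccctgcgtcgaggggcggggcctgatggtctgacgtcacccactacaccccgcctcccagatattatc
A match describes the letters of these windows and shows neither a bound site nor a cause.

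The libraries held 30181834 to 39088597 reads, and 15175 genes were abundant enough to be tested. Levels are TMM-scaled CPM, the counts of a gene scaled to 1e+06 reads a library, and 3 reads, taken as the detection floor, equal 0.078 to 0.102 CPM, which covers counting error only. Vehicle 3 stood apart in sex-linked genes, with 2.39 CPM of Xist, the RNA that silences an X chromosome, where the other 7 libraries had 470.2 to 1441 CPM, and 9842 reads of 4 Y-linked genes against at most 34. This is the pattern of male cells in Vehicle 3 and of female cells in the other 7. The differences of members that were highest in Vehicle 3 are therefore also given without it. The 12 B lineage markers summed to 6444 to 10953 CPM in Estrogen and 7863 to 12647 CPM in Vehicle. The most abundant by group means, Cd79a, encodes a signalling chain of the B cell receptor. It was at 1264 to 2751 CPM in Estrogen and 1496 to 3146 CPM in Vehicle. The lowest, Vpreb2, was at 1.39 to 2.62 CPM in Estrogen and 1.29 to 2.39 CPM in Vehicle. Markers of other marrow cells were present too, among them 11 of neutrophils, which summed to 3437 to 9647 CPM in Estrogen and 3346 to 9168 CPM in Vehicle. In Estrogen 2 the neutrophil sum, 9647 CPM, was above the B lineage sum, 6444 CPM. In such bulk libraries more cells of a type and more RNA per cell cannot be told apart.

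No hypoxia target passed the test between Estrogen and Vehicle. Of the 33 members, 30 were abundant enough to be tested, 20 of which had a fitted difference above 0 (66.7%, against 48.9% of all genes tested) and 10 below 0. All log2 differences are Estrogen minus Vehicle, and their median was 0.08, against -0.0054 over all genes. The SD of the members' median between libraries of a group was 0.116. It describes single libraries and is not the error of a difference between groups, and the shift of the median was not tested. Hmox1, Vegfa and Plod1 were the 3 members (10.0%) with a difference of at least 0.4, against 10.4% of all genes, and no member fell by 0.4 or more, against 5.14%. In edgeR's quasi-likelihood test 0 members passed an adjusted p of 0.05 in either direction (0.00% of all genes in each direction), and adjusted p ran from 0.860 to 0.998. At an unadjusted p under 0.05, Hmox1 alone was higher (3.33% of members, against 2.27% of genes) and 0 members were lower (1.26% of genes). Over all genes, edgeR gave 535 with an unadjusted p under 0.05, the DESeq2 Wald test 721 with 1 call and limma-voom 500 with 0 calls. No member had groups that did not overlap, against 0.896% of genes higher and 0.771% lower in Estrogen. These shares lie near those of all genes, apart from the share above 0. The median was 0.129 without Vehicle 3, with 24 of 30 members above 0, and 0.030 without Estrogen 2, with 21 above 0. The median over all genes was 0.001 without Vehicle 3 and -0.008 without Estrogen 2. Scaling by library totals in place of TMM also gave 0.129 and 24 members above 0, but the median over all genes rose with it, to 0.046.

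**Figure D1:**
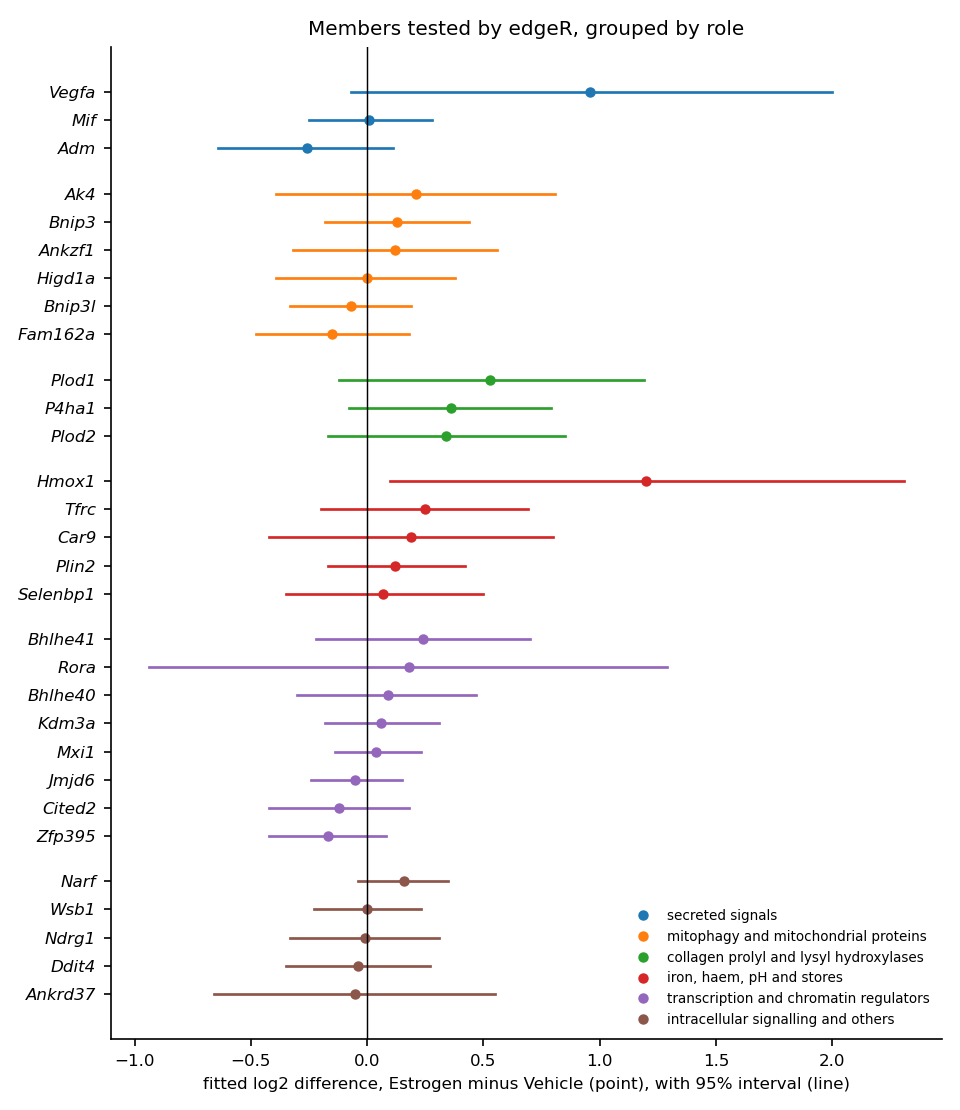
Fitted log2 difference (Estrogen minus Vehicle, horizontal axis) of each of the 30 tested members, with its 95% interval as a line, grouped and coloured by role. Hmox1 (1.20) and Vegfa (0.96) lie farthest to the right, and the interval of every member but Hmox1 includes 0.

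The secreted signals comprise Vegfa, Adm, Mif and Stc2, and 2 of the 3 tested were above 0. Vegfa (ENSMUSG00000023951, chromosome 17, 46016993 to 46032369, minus strand, GRCm38) encodes the growth factor that draws new vessels into hypoxic tissue. It was at 16.7, 66.8, 28.5 and 54.3 CPM in Estrogen 1 to 4, against 10.6, 17.9, 20.5 and 36.5 CPM in Vehicle 1 to 4. Estrogen 2 and Estrogen 4 were the highest of all 8 libraries, while Estrogen 1 and Estrogen 3 lay within the Vehicle range. The means were 41.6 ± 23.0 CPM in Estrogen and 21.4 ± 10.9 CPM in Vehicle (SD, n = 4 each), a log2 difference of 0.96 ± 0.46 (SE) with a 95% interval from -0.07 to 2.0 (edgeR adjusted p = 0.860). Without Estrogen 2 the difference was 0.64, and without Vehicle 4 it was 1.35. Mif, a cytokine that was the most abundant secreted signal per length, was at 57.9, 53.2, 51.3 and 51.8 CPM in Estrogen, against 53.8, 50.9, 63.7 and 43.5 CPM in Vehicle. Its groups overlapped fully, and the fitted difference was 0.01 ± 0.12. Of the 50-base windows of Mif transcripts, 50.9% also occur in other genes, mostly C230062I16Rik, so its level is uncertain. Adm, which encodes the vasodilator peptide adrenomedullin, averaged 7.74 ± 1.02 CPM in Estrogen and 9.29 ± 1.61 CPM in Vehicle, with a fitted difference of -0.26 ± 0.17 that was the lowest of all members. Without Vehicle 3, where Adm was highest at 11.5 CPM, the difference of Adm was -0.13. Stc2, the gene of a secreted glycoprotein, had 3 to 11 reads in Estrogen and 3 to 14 reads in Vehicle and was not tested.

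**Figure D2:**
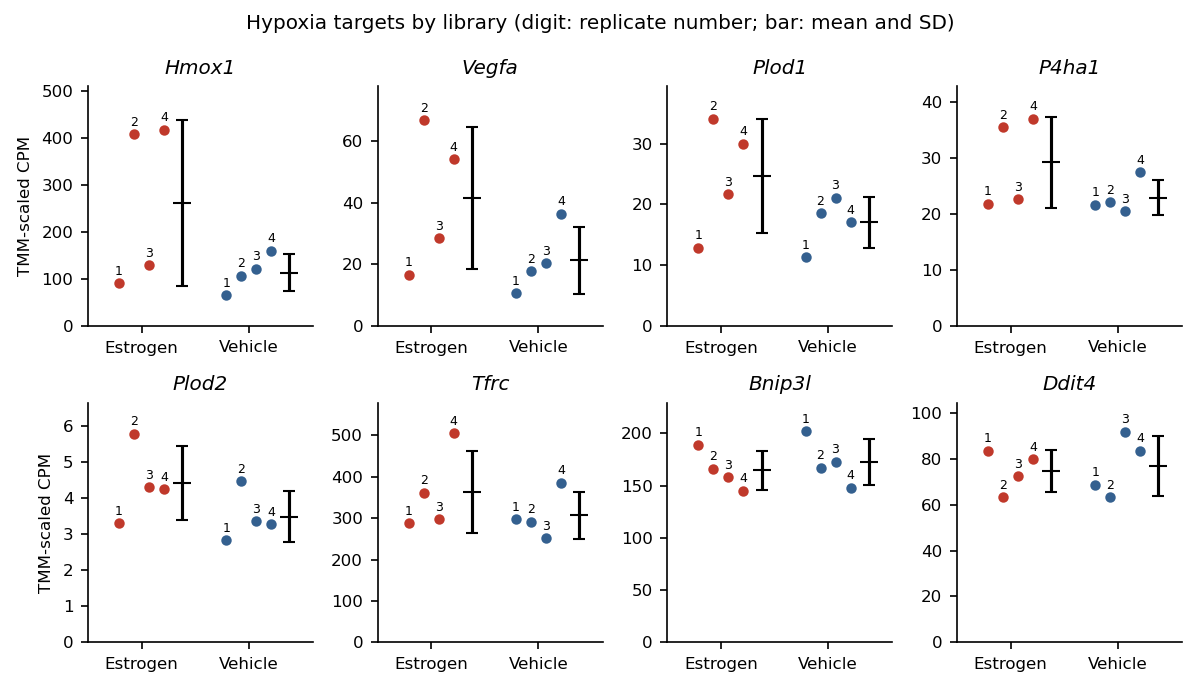
TMM-scaled CPM (vertical axes, each starting at 0) of 8 members in Estrogen (left) and Vehicle (right) libraries, with 1 point per library marked by its replicate number and a bar for mean and SD (n = 4). Estrogen 2 and Estrogen 4 are the highest points for Hmox1, Vegfa, Plod1 and P4ha1, while the groups of Bnip3l and Ddit4 overlap over most of their range.

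The mitochondrial members differed little between the groups, with 3 above and 3 below 0 and a median of 0.06. Bnip3l, a receptor on the outer mitochondrial membrane that delivers mitochondria to autophagy, was the most abundant of them per length. It was at 189, 166, 158 and 145 CPM in Estrogen, against 202, 167, 173 and 148 CPM in Vehicle. Its difference was -0.07 ± 0.12, with a 95% interval from -0.33 to 0.19. The related receptor gene Bnip3 was at 25.7 to 37.0 CPM in Estrogen and 23.4 to 30.1 CPM in Vehicle, with its highest value in Estrogen 2 and a difference of 0.13 ± 0.14 that was 0.01 without that library. Bnip3 shares 47.2% of its windows with other genes, mostly AC160336.1, so its level is uncertain. Higd1a, whose product sits with the respiratory chain in the inner membrane, averaged 21.2 ± 4.65 CPM in Estrogen and 21.3 ± 3.04 CPM in Vehicle. Fam162a, which encodes a mitochondrial protein tied to cell death in hypoxia, averaged 11.7 ± 0.854 CPM in Estrogen and 12.9 ± 2.17 CPM in Vehicle (-0.15 ± 0.15, and -0.04 without Vehicle 3, its highest library). Ak4, a mitochondrial adenylate kinase, was low at 1.80 ± 0.477 CPM in Estrogen and 1.56 ± 0.304 CPM in Vehicle. Ankzf1, whose yeast relative Vms1 acts on stalled ribosomes and moves to stressed mitochondria, averaged 41.4 ± 8.10 CPM in Estrogen and 38.1 ± 9.13 CPM in Vehicle (0.12 ± 0.20).

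The collagen hydroxylases had the highest median of the role groups, 0.36, with all 3 tested members above 0 in each of the 17 other settings run. Prolyl hydroxylation by P4HA enzymes stabilises the collagen triple helix, and lysyl hydroxylation by PLOD enzymes prepares collagen for cross-links. Plod1 (ENSMUSG00000019055, chromosome 4, 147909753 to 147936767, minus strand) was at 12.9, 34.1, 21.7 and 30.0 CPM in Estrogen, against 11.3, 18.6, 21.1 and 17.1 CPM in Vehicle. Estrogen 2, Estrogen 3 and Estrogen 4 were above every Vehicle library, and Estrogen 1 lay near the lowest, Vehicle 1. Plod1 averaged 24.7 ± 9.37 CPM in Estrogen and 17.0 ± 4.13 CPM in Vehicle, a difference of 0.53 ± 0.29 with a 95% interval from -0.12 to 1.19 (edgeR adjusted p = 0.860). Without Estrogen 2 the difference of Plod1 was 0.34. P4ha1 (ENSMUSG00000019916, chromosome 10, 59323296 to 59373304, plus strand) was the most abundant of the 4 per length, at 21.9, 35.6, 22.7 and 37.1 CPM in Estrogen, against 21.7, 22.1, 20.5 and 27.5 CPM in Vehicle. Again Estrogen 2 and Estrogen 4 were the highest libraries and the other Estrogen libraries lay within the Vehicle range. The difference of P4ha1 was 0.36 ± 0.20, with a 95% interval from -0.08 to 0.79 (edgeR adjusted p = 0.860), and 0.23 without Estrogen 4. Plod2 averaged 4.41 ± 1.03 CPM in Estrogen and 3.48 ± 0.699 CPM in Vehicle (0.34 ± 0.23), and 0.18 was its difference without Estrogen 2. P4ha2 was not tested, with 4, 12, 5 and 34 reads in Estrogen, against 0, 10, 6 and 5 reads in Vehicle.

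Members for iron, haem, pH and stores were all above 0 where tested (5 of 5, median 0.19), and Hmox1 stood farthest from the rest. Hmox1 (ENSMUSG00000005413, chromosome 8, 75093621 to 75100589, plus strand) encodes heme oxygenase 1, which breaks haem down to iron, biliverdin and carbon monoxide, and is also known to be induced by haem and oxidative stress and to be abundant in macrophages that clear red cells. It was at 90.4, 408, 129 and 417 CPM in Estrogen, against 64.9, 107, 122 and 159.9 CPM in Vehicle. Estrogen 2 and Estrogen 4 were far above the other 6 libraries, and Estrogen 1 and Estrogen 3 lay within the Vehicle range. The means were 261 ± 176 CPM in Estrogen and 113 ± 39.2 CPM in Vehicle (SD, n = 4 each), a log2 difference of 1.20 ± 0.49 with a 95% interval from 0.10 to 2.31. The unadjusted edgeR p was 0.0357 and the adjusted p over all genes was 0.860. Without Estrogen 2 the difference of Hmox1 was 0.90, without Estrogen 4 it was 0.89 and without Vehicle 3 it was 1.26, and in each of these fits its unadjusted p was above 0.05. Tfrc, which was second to Hmox1 in this set per kb of exon but above it in CPM, encodes the transferrin receptor that takes up iron. It averaged 363 ± 99.5 CPM in Estrogen and 306 ± 56.7 CPM in Vehicle, a difference of 0.25 ± 0.20. Tfrc was highest in Estrogen 4, at 504 CPM, and its difference was 0.05 without that library. Estrogen 4 also had the highest sum of the 11 erythroid markers, 65.2 CPM against 18.3 to 25.7 CPM in the other Estrogen and 22.6 to 33.7 CPM in the Vehicle libraries, and their part in the result was not tested. Plin2, a coat protein of lipid droplets, averaged 82.2 ± 11.8 CPM in Estrogen and 75.5 ± 10.2 CPM in Vehicle (0.12 ± 0.13, and 0.06 without Estrogen 2). Car9, the membrane carbonic anhydrase widely used as a hypoxia marker, was low at 2.05 ± 0.563 CPM in Estrogen and 1.80 ± 0.388 CPM in Vehicle (0.19 ± 0.27, and 0.02 without Estrogen 2, its highest library). Selenbp1, which shares 46.3% of its windows with Selenbp2, averaged 6.24 ± 0.552 CPM in Estrogen and 5.94 ± 1.36 CPM in Vehicle (0.07 ± 0.19). Ppp1r3c, a glycogen-targeting subunit of protein phosphatase, had 0 reads in all 8 libraries, which allows up to 3 reads in each.

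The 8 transcription and chromatin regulators had a median of 0.05, with 5 above and 3 below 0. Cited2, which competes with HIF-1α for the coactivators CBP and p300, was the most abundant per length. It was at 73.6, 67.5, 73.9 and 54.3 CPM in Estrogen, against 81.7, 76.1, 76.6 and 58.1 CPM in Vehicle. The groups of Cited2 overlapped through Vehicle 4 alone, and its difference was -0.12 ± 0.13, with -0.21 without Vehicle 4 and -0.02 without Estrogen 4. Kdm3a, a histone demethylase that itself uses oxygen, averaged 130.3 ± 11.0 CPM in Estrogen and 125 ± 16.3 CPM in Vehicle (0.06 ± 0.11). The oxygen-using hydroxylase gene Jmjd6 averaged 43.8 ± 1.35 CPM in Estrogen and 45.2 ± 3.80 CPM in Vehicle (-0.05 ± 0.09). Mxi1, an antagonist of MYC, had the smallest standard error of all members, with 45.8 ± 2.95 CPM in Estrogen, 44.5 ± 1.74 CPM in Vehicle and a difference of 0.04 ± 0.08. The paired repressor genes Bhlhe40 and Bhlhe41 differed by 0.09 ± 0.17 and 0.24 ± 0.21. Bhlhe40 was highest in Vehicle 3 at 75.4 CPM, and its difference was 0.27 without that library. Bhlhe41 was highest in Estrogen 2 at 39.7 CPM, and its difference was 0.14 without that library. Zfp395, a zinc finger gene, averaged 42.0 ± 4.89 CPM in Estrogen and 47.2 ± 4.26 CPM in Vehicle (-0.17 ± 0.11, and -0.11 without Vehicle 3). Rora, a nuclear receptor gene, was low and had the widest interval of all members, with a difference of 0.18 ± 0.50.

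Among the 5 signalling and other members 2 were above and 3 below 0, with a median of -0.01. Ddit4, whose product REDD1 restrains mTORC1 under stress, was the most abundant per length. It was at 83.5, 63.1, 72.3 and 79.7 CPM in Estrogen, against 68.7, 63.2, 91.8 and 83.4 CPM in Vehicle. The ranges of Ddit4 overlapped almost fully, and the difference was -0.04 ± 0.14. Wsb1, a substrate receptor of a ubiquitin ligase, averaged 139.7 ± 15.3 CPM in Estrogen and 139.6 ± 11.6 CPM in Vehicle, with a 95% interval from -0.23 to 0.23. Ndrg1, a stress-induced cytoplasmic protein gene, averaged 32.2 ± 3.31 CPM in Estrogen and 32.4 ± 5.91 CPM in Vehicle. Narf, whose product binds prelamin A, averaged 130.3 ± 9.01 CPM in Estrogen and 117 ± 9.17 CPM in Vehicle, with a difference of 0.16 ± 0.09 (edgeR adjusted p = 0.860). Ankrd37, an ankyrin repeat gene, averaged 5.01 ± 1.07 CPM in Estrogen and 5.20 ± 1.75 CPM in Vehicle (-0.05 ± 0.27).

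Per kb of exon, a scale on which levels can be set between genes, Hmox1 was the most abundant member at 107 CPM per kb over all 8 libraries. Mif followed at 71.5, Tfrc at 54.1, Bnip3l at 43.7 and Ddit4 at 43.1 CPM per kb. The order of Hmox1 and Mif held by group means in Estrogen alone, with 149 ± 100.3 and 71.9 ± 4.02 CPM per kb, whereas in Vehicle Hmox1 was at 64.8 ± 22.4 and Mif at 71.1 ± 11.3 CPM per kb. These neighbours, and Bnip3l and Ddit4, did not differ beyond their spread. The matrix enzymes stood lower, with P4ha1 at 6.35, Plod1 at 3.08 and Plod2 at 0.731 CPM per kb. Vegfa, at 7.35 CPM per kb, ranked 17 of 33. Car9, Plod2, Ak4, Rora, P4ha2 and Stc2 were all below 1 CPM per kb.

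**Figure D3:**
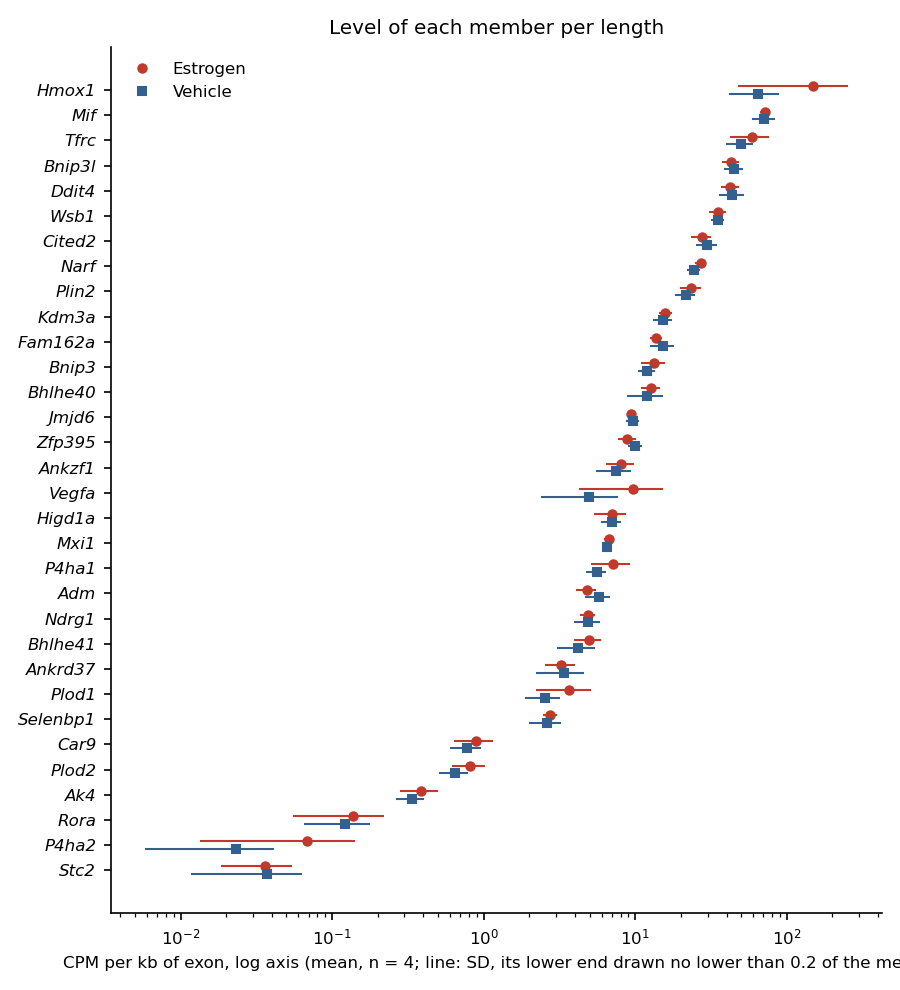
Mean level of the 32 detected members in CPM per kb of exon (horizontal log axis) for Estrogen (circles, upper) and Vehicle (squares, lower), with the SD over 4 libraries as a line whose lower end is drawn no lower than 0.2 of the mean. Hmox1 is the highest in Estrogen at 149 CPM per kb, Stc2 and P4ha2 are the lowest, and Ppp1r3c, at 0, is not drawn.

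The members were also followed library by library. Each member's log2 CPM was set against its own mean over the 8 libraries, and the median over members was -0.08, 0.15, -0.05 and 0.13 in Estrogen 1 to 4, against -0.12, -0.08, 0.14 and -0.03 in Vehicle 1 to 4. Estrogen 2, Estrogen 4 and Vehicle 3 were therefore the libraries with high members. There 23, 19 and 22 of the 30 members stood above their own mean, against 49.5%, 50.9% and 52.7% of all genes. Of the 22 members above their mean in Vehicle 3, 15 were above it in Estrogen 2 and 11 in Estrogen 4. These are no larger shares than the 23 and 19 of all 30 members, so the overlap shows no common set of members. Vehicle 3 was the highest library for 8 members, Adm, Mif, Fam162a, Bhlhe40, Jmjd6, Zfp395, Ddit4 and Ankrd37 (11.6% of all genes were highest there). Without Vehicle 3 the difference was 0.13 for Mif, 0.02 for Jmjd6, 0.07 for Ddit4 and 0.13 for Ankrd37. Estrogen 2 or Estrogen 4 was the highest library for 15 of the 30 members, against 31.5% of all genes. Taken singly, Estrogen 2 was highest for 10 members (15.7% of all genes) and Estrogen 4 for 5 members (15.8% of all genes). In 7 members (23.3%), against 11.0% of all genes, Estrogen 2 and Estrogen 4 both lay above each of the other 6 libraries, a count chosen after the values were seen. These were Vegfa, P4ha1, Plod1, Hmox1, Car9, Bhlhe41 and Rora. Vehicle 1 was the lowest library for 8 members, among them Vegfa, Plod1 and Hmox1 (26.7%, against 19.9% of all genes).

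**Figure D4:**
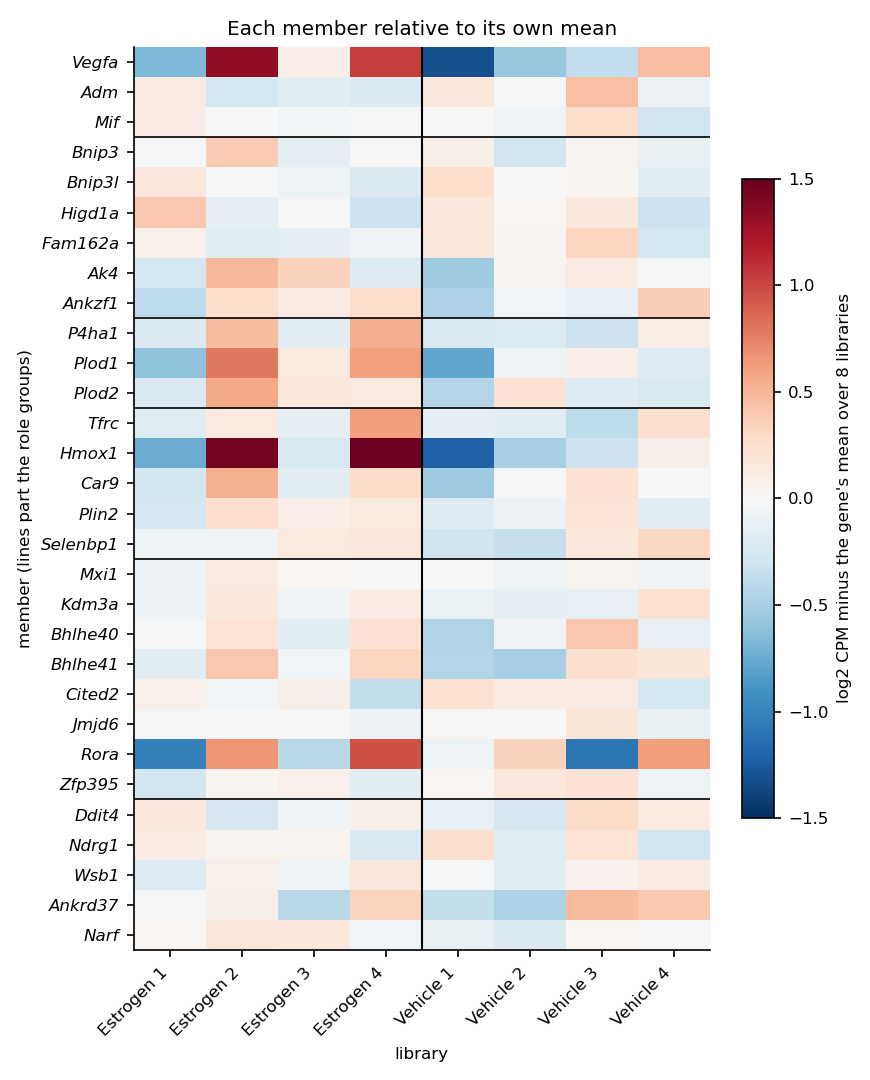
Log2 CPM of the 30 tested members (rows, in role groups parted by lines) in each library (columns, Estrogen left of Vehicle), relative to the member's mean over the 8 libraries. The darkest red cells are those of Vegfa and Hmox1 in Estrogen 2 and Estrogen 4. Plod1 and Rora are red there too, Rora also in Vehicle 4, and most other rows are paler.

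The same libraries differed in markers of other cells. Of 17 monocyte and macrophage markers, 13 were above 0 (median 0.55), 4 of them and 1 of those below 0 at an unadjusted edgeR p under 0.05, and 0 passed the adjusted test. None of the 17 was at 0 in all libraries. In 8 of the 17, Cd68, C1qa, Mertk, Vcam1, Cd163, Mrc1, Slc40a1 and Spic, Estrogen 2 and Estrogen 4 lay above each of the other 6 libraries (11.0% of all genes), as they did for Hmox1, Vegfa, Plod1 and P4ha1. Mrc1, the mannose receptor gene of macrophages, was at 15.2, 53.6, 25.8 and 83.2 CPM in Estrogen, against 7.98, 17.2, 20.4 and 33.3 CPM in Vehicle. Slc40a1, the iron exporter gene of macrophages that recycle haem, was at 43.5, 154, 85.8 and 132 CPM in Estrogen, against 37.2, 62.8, 69.4 and 67.7 CPM in Vehicle. Not all myeloid markers did so. The most abundant, Lyz2, was highest in Estrogen 2 at 2258 CPM but at 1078 CPM in Estrogen 4, and the monocyte marker Ly6c2 was at 193 to 305 CPM in Estrogen, against 259 to 524 CPM in Vehicle (-0.62 ± 0.22). Summed, the 17 markers ranged from 1704 to 3316 CPM in Estrogen and from 1708 to 2675 CPM in Vehicle. Of 8 plasmacytoid dendritic cell markers 5 were above and 3 below 0 (median 0.19), 2 of those above at an unadjusted edgeR p under 0.05 and 0 past the adjusted test. Siglech, Cox6a2 and Pacsin1 were highest in Estrogen 2 and Estrogen 4. Siglech was at 771, 1197, 762 and 1401 CPM in Estrogen, against 523, 554, 608 and 933 CPM in Vehicle. The sums of the 8 markers overlapped, at 3137 to 3737 CPM in Estrogen and 2986 to 3766 CPM in Vehicle. Ly6d, the most abundant of them by group means, was below 0, at 745 to 1641 CPM in Estrogen and 769 to 2023 CPM in Vehicle (-0.42 ± 0.33). The neutrophil markers summed to 9647 CPM in Estrogen 2 and 8012 CPM in Estrogen 3, and to 9168 CPM in Vehicle 3, against 3346 to 4474 CPM in the other Vehicle libraries. Of 12 tested T and NK cell markers 11 were below 0 (median -0.67), 3 of them at an unadjusted edgeR p under 0.05 and 0 past the adjusted test. Cd8b1, a chain of the T cell coreceptor CD8, had the smallest p in the whole table. It was at 5.87 to 8.30 CPM in Estrogen and 13.3 to 15.7 CPM in Vehicle (-1.03 ± 0.14, edgeR adjusted p = 0.452). The most abundant gene of this list, Cd8a, encodes the other CD8 chain and was above 0. It was at 38.2, 103, 41.2 and 133 CPM in Estrogen, against 29.0, 29.8, 52.8 and 91.4 CPM in Vehicle (0.64 ± 0.49). The sums of these markers, which come mostly from Cd8a and Lck, overlapped, at 86.6 to 178 CPM in Estrogen and 78.2 to 166 CPM in Vehicle. Trac, a T cell receptor chain, was far below Cd8a, at 0.480 to 0.919 CPM in Estrogen and 0.482 to 1.07 CPM in Vehicle. Cd8a therefore need not mark T cells here, and its source was not tested. Several of those below 0 were low, such as Cd3e at 5 to 11 reads in Estrogen and 8 to 21 reads in Vehicle. Of the 12 B lineage markers 10 were below 0 too (median -0.10), unlike most monocyte and macrophage markers. They summed to 6444 CPM in Estrogen 2 and 6475 CPM in Estrogen 4, the lowest of all libraries, against 7863 to 12647 CPM in Vehicle. The part of these markers in the differences of Hmox1, Vegfa, Plod1 and P4ha1, and in the values of Vehicle 3, was not tested.

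**Figure D5:**
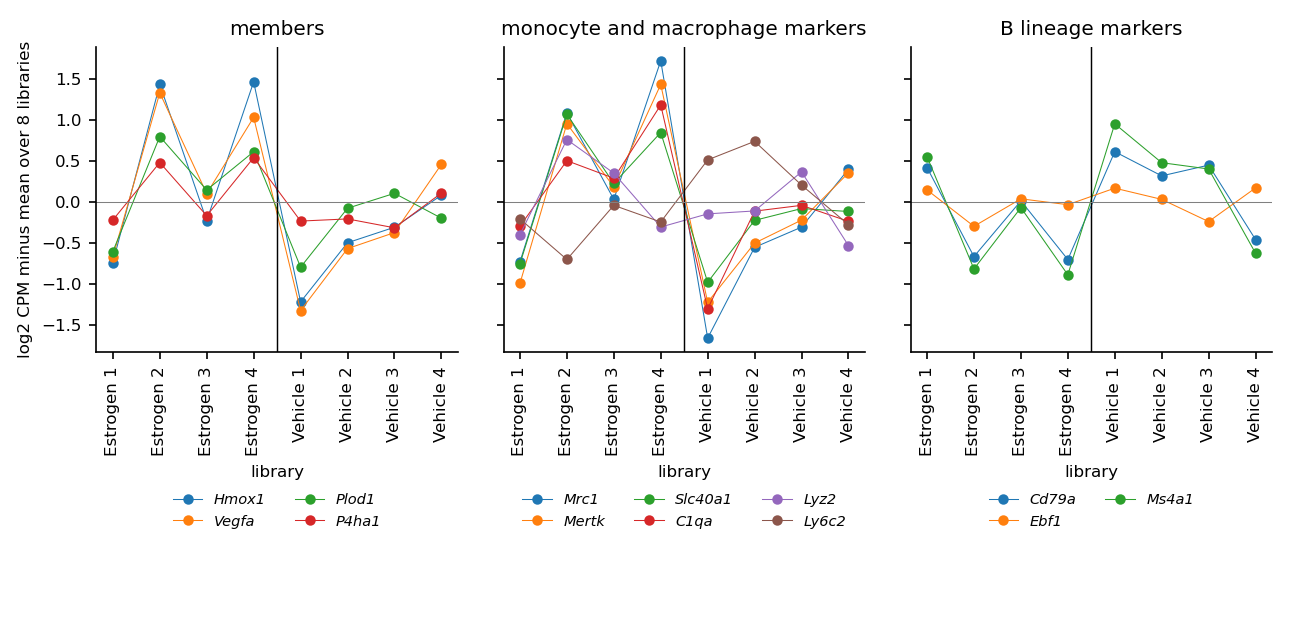
Log2 CPM relative to the gene's mean over 8 libraries (vertical axis) for 4 members (left), 6 monocyte and macrophage markers (middle) and 3 B lineage markers (right), by library, with Estrogen left of Vehicle. Thin lines link the values of a gene and mark no order. Mrc1, Mertk, Slc40a1 and C1qa are high in Estrogen 2 and Estrogen 4 like the 4 members, while Cd79a and Ms4a1 are low there.

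The rest of the HIF pathway gave 0 calls as well. Of 10 genes for HIF subunits and oxygen-sensing hydroxylases, 8 were tested, 6 were above 0 and the median was 0.06. Hif1a, the gene of HIF-1α, was at 110.1, 108, 104 and 124 CPM in Estrogen, against 114, 111, 94.8 and 105 CPM in Vehicle (0.07 ± 0.09). Epas1, which encodes the related subunit HIF-2α, was near the lower end of the table, at 0.612, 2.85, 0.987 and 2.82 CPM in Estrogen, against 0.813, 0.806, 0.704 and 1.08 CPM in Vehicle. Its 2 high values were again those of Estrogen 2 and Estrogen 4, and the difference of Epas1 was 1.10 ± 0.48 (edgeR adjusted p = 0.860). Egln3, a prolyl hydroxylase gene that is itself a HIF target, reached 24.7 CPM in Estrogen 2, against 9.35 to 12.7 CPM in the other Estrogen and 6.19 to 11.5 CPM in the Vehicle libraries (0.62 ± 0.33). Vhl averaged 49.5 ± 6.99 CPM in Estrogen and 57.3 ± 9.02 CPM in Vehicle (-0.21 ± 0.14).

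The 22 glycolytic HIF targets, all tested, were above 0 in 20 genes with a median of 0.18, against 20 of 30 and 0.08 for the members outside glycolysis. Of all genes tested, 48.9% were above 0. The 3 with the smallest p were Gapdh, Hk2 and Aldoa. Hk2, the inducible hexokinase, was at 16.5, 43.6, 29.1 and 28.0 CPM in Estrogen, against 18.5, 22.5, 23.2 and 27.4 CPM in Vehicle (0.36 ± 0.25). Aldoa, the muscle-type aldolase, averaged 472 ± 113 CPM in Estrogen and 388 ± 92.8 CPM in Vehicle (0.28 ± 0.20). Gapdh was at 3.57, 27.9, 5.49 and 8.30 CPM in Estrogen, against 2.86, 4.19, 4.84 and 8.54 CPM in Vehicle (1.15 ± 0.61), and since 25.1% of its windows also occur in other genes, mostly Gm7336, its counts are uncertain. Estrogen 2 was the highest library for Gapdh, Hk2 and Aldoa. In 4 of the 22 genes, Slc2a3, Pfkm, Aldoc and Pdk1, Estrogen 2 and Estrogen 4 both lay above each of the other 6 libraries, against 11.0% of all genes. For Pfkm (7.14 and 7.16 CPM, against 7.10 CPM in Vehicle 4) and Pdk1 (35.5 CPM in both, against at most 35.0 CPM) the margin was narrow. The summed level of the 22 genes was 3692 CPM in Estrogen 2 and 2638 CPM in Estrogen 4, against 2384 to 3029 CPM in Vehicle.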

How the data were processed

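RNA sequencing was done on 8 libraries, 4 Estrogen and 4 Vehicle, grouped by their titles in the labels. The values the authors deposited are whole-number counts of reads for each Ensembl gene, not normalized. CASAVA, Bowtie 0.12.2 and mm10 are named in the submitters' processing notes. Which counter, annotation release, strand setting and rule for multi-mapping reads were used is not given in the sources used here, so genes that share sequence or overlap a gene on the opposite strand (13 members) are uncertain. Since the origin of the replicates is not stated, p-values reflect the spread among the libraries, possibly technical.

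Symbols, coordinates and exon lengths came from GENCODE M21 on GRCm38 (46488 of 46983 identifiers matched). Counts were fitted with edgeR 4.0.16 in R 4.3.3 (filterByExpr by group, TMM, robust quasi-likelihood F-test, two-sided, Benjamini-Hochberg over 15175 genes holding 99.9% of counts, threshold 0.05), and the biological coefficient of variation was 22.7%. Alternatives used DESeq2 1.42.0 and limma 3.58.1, other scalings and filters, a replicate block and each library left out. Log2 differences are fitted values ± SE and group values are means ± SD of CPM. Shared sequence is given as the percentage of a gene's transcript windows, each 50 bases long, that recur in another gene. Figures were drawn with matplotlib 3.10.9.

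Every library is printed for a member with an unadjusted p under 0.05, groups that do not overlap, an absolute log2 difference of at least 0.4 or the highest per-length level of its role. The 3 pathway genes with the smallest p in each list and Hif1a are named, and of markers the most abundant and those needed for a range. The marker genes Mrc1, Slc40a1, Ly6c2, Siglech, Cox6a2, Pacsin1, Ly6d, Cd8b1, Cd8a, Cd3e, Lck and Trac and the read counts of P4ha2 were added once values had been looked at. The members and lists were chosen with earlier results of these data known.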

Additional observations from a re-analysis of the deposited data

Results flagged for a closer look

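Kdm3a was at 149 CPM in Vehicle 4, against 114 to 118 CPM in the other 3 Vehicle libraries, and stood out there as a sample far from the others of its group. Jmjd6 was at 41.8 CPM in Estrogen 4, against 44.4 to 44.7 CPM in the other 3 Estrogen libraries, and stood out in the same way although the gap is small. These are 2 of 60 member and group pairs examined, and chance marks about 1 in 20.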

How the results depend on the processing

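Over 17 other settings, 466 of 510 fitted member differences kept their direction, and the lowest adjusted p of any member was 0.276, for Plod1 under the replicate block. Hmox1 ran from 0.78 to 1.48, Vegfa from 0.64 to 1.35, Plod1 from 0.34 to 0.74 and P4ha1 from 0.23 to 0.47, and their adjusted p from 0.276 to 1.00. The median of the members ran from 0.030 (without Estrogen 2) to 0.129 (without Vehicle 3). Genes past the threshold numbered 1 with the DESeq2 Wald test, limma-voom with sample weights and the replicate block, and 0 in every other setting, none of them a member. The count of members with an unadjusted p under 0.05 was 1 in edgeR, 0 with no low-count filter and with limma-voom, 2 with the DESeq2 Wald test and with sample weights, 4 under the block and between 0 and 4 with a library left out: 0 without Estrogen 2, Estrogen 4, Vehicle 1, Vehicle 2 or Vehicle 3, 2 without Estrogen 3 or Vehicle 4 and 4 without Estrogen 1. The cause of these moves was not tested. The labels do not say that replicate numbers pair libraries, and deviations of same-numbered libraries correlated, across genes, at 0.674, -0.131, 0.08 and 0.554, with Estrogen 2 closest to Vehicle 4 (0.398), so the block is given only here. Under it 2175 genes, against 535, had an unadjusted edgeR p under 0.05, among them P4ha1 (0.0256), Plod1 (0.0151), Tfrc (0.0380) and Vegfa (0.0159), with adjusted p of 0.276 to 0.330. Directions changed only for 11 members with small differences or wide intervals, and their cause was not tested. Library totals gave Ddit4 0.01, Higd1a 0.05, Jmjd6 0.01 and Ndrg1 0.05. Sample weights gave Ankrd37 0.05, Ddit4 0.06, Mif -0.01, Ndrg1 0.07 and Rora -0.19. Higd1a was 0.0025 with DESeq2 size factors, 0.0024 with the Wald test, 0.01 with no filter and 0.0047 with a minimum of 1 CPM in 4 libraries, where Ndrg1 was 0.0008. Limma-voom gave Ndrg1 0.01 and Wsb1 -0.0028, and the block gave Ndrg1 0.0031 and Wsb1 -0.0017. With a library left out, differences ran for Ankrd37 from -0.18 to 0.13, Bhlhe40 from -0.01 to 0.27, Bnip3l from -0.15 to 0.03, Ddit4 from -0.11 to 0.07, Higd1a from -0.16 to 0.10, Jmjd6 from -0.09 to 0.02, Mif from -0.07 to 0.13, Ndrg1 from -0.09 to 0.09, Rora from -0.16 to 0.43, Selenbp1 from -0.01 to 0.21 and Wsb1 from -0.05 to 0.06.

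Stc2, P4ha2 and Ppp1r3c had too few reads to test. For the median gene the 95% interval, which is not adjusted for the number of genes, had a half-width of 0.4 on the log2 scale. Smaller differences were often not detectable with 4 libraries a group. Larger ones did not pass the adjusted test either, such as Hmox1 at 1.20 and Cd8b1 at -1.03. Shared sequence limits Mif, Bnip3 and Selenbp1, and the strand setting those members that overlap another gene. All libraries come from cells under hypoxia, and they hold RNA of other marrow cells.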
